A study of Mus musculus with 2 samples.

Results

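Doublecortin (Dcx), the doublecortin-like kinase genes Dclk1 and Dclk2, tau (Mapt), Mtap2, Mtap1b and the stathmin genes Stmn1 to Stmn4 were followed from neural progenitor cells (NPCs) to neurons of the mouse cortex. The genes were taken by symbol from the deposited expression tables, Mtap2 and Mtap1b being the older symbols of Map2 and Map1b, and all 10 were found among the 20373 genes listed. RNA was sequenced from 2 populations of cells sorted out of the cortex at embryonic day 15.5, with 1 library each. Embryos came from a cross of heterozygous Nestin-GFP with homozygous DCX-mRFP mice and carried both reporters in both groups. Per the labels, green cells were collected as NPCs and cells of both colours as neurons. The deposited columns are headed with the letters D (NPC) and R (neuron), which no label explains. If they stood for double and red, the library labelled NPC would be that of the cells with both colours, so NPC and neuron below mean the libraries so labelled. No treatment was given, and how many embryos were pooled is not given in the sources used here. Because a Dcx-driven reporter was part of the sort, the level of Dcx itself is not independent of how the groups were made.

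Proteins of these families set how stable a microtubule is. Tau, MAP2 and MAP1B bind along the microtubule wall and stabilise or space the polymer, tau mainly in axons, MAP2 in dendrites and cell bodies, and MAP1B in growing axons. Doublecortin-domain proteins bind in the groove between protofilaments and are needed for the migration of young cortical neurons, whereas stathmins bind free tubulin dimers and favour disassembly until they are phosphorylated. As a cortical progenitor becomes a neuron, the spindle and the process of the dividing cell give way to a leading process, an axon and dendrites. These are all built on microtubules that carry these proteins.

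Summed over the listed genes, the libraries held 26346226 (NPC) and 23312054 (neuron) reads. A level is expressed as CPM (counts per 1000000), with the authors' scaling between the libraries kept. Folds are ratios of CPM with a 95% Clopper-Pearson interval that covers counting error only. Neither group has replicates, so no p-value is given and every difference is one between these libraries. Markers of cell types were compared between the libraries. They cannot decide what the letters D and R stand for. Under either reading the library labelled NPC would hold the less mature cells. Nes, the nestin gene, is among the progenitor markers, and a reporter named for it was part of the sort. All 8 radial glia and progenitor markers were at least 2-fold higher in the NPC library (summed level 1711 CPM, against 618 in neurons), among them Sox2 at 98.1 and 34.1 CPM, and 5 of 6 intermediate progenitor markers were too, among them Eomes at 1013 and 354 CPM. Of 8 projection neuron markers, 7 were higher in the neuron library (summed level 3640.4 and 6070.1 CPM), among them Neurod6 at 913 and 1319.5 CPM and Tubb3, the neuronal beta-tubulin, at 1092 and 1961 CPM. Transcripts of neurons, such as Tubb3 and Neurod6, were thus also abundant in the library labelled NPC. Dcx was at rank 5 by CPM among all listed genes there.

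All 10 members were higher in the neuron library, from 1.09-fold for Dclk2 to 2.83-fold for Stmn2. Counted after 1 CPM was added to both values, Mapt, Stmn2 and Stmn4 were at least 2-fold higher. Of all 12693 genes with at least 1 CPM in a library, 3.85% reached 2-fold on the neuron side and 6.73% on the NPC side. At least 1.5-fold higher were 6 members, the former 3 with Stmn3, Dclk1 and Mtap1b, against 10.6% of all tested genes (13.1% reached it on the NPC side). All 10 members passed the 1 CPM filter in both libraries. The log2 ratios of neuron to NPC had a median of 0.77 over the members and of −0.0049 over all tested genes. Among tested genes, 49.3% were higher in neurons, and 54.2% among the 3003 genes at 100 CPM or more. Together the members took 0.854% of NPC reads and 1.24% of neuron reads.

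**Figure D1:**
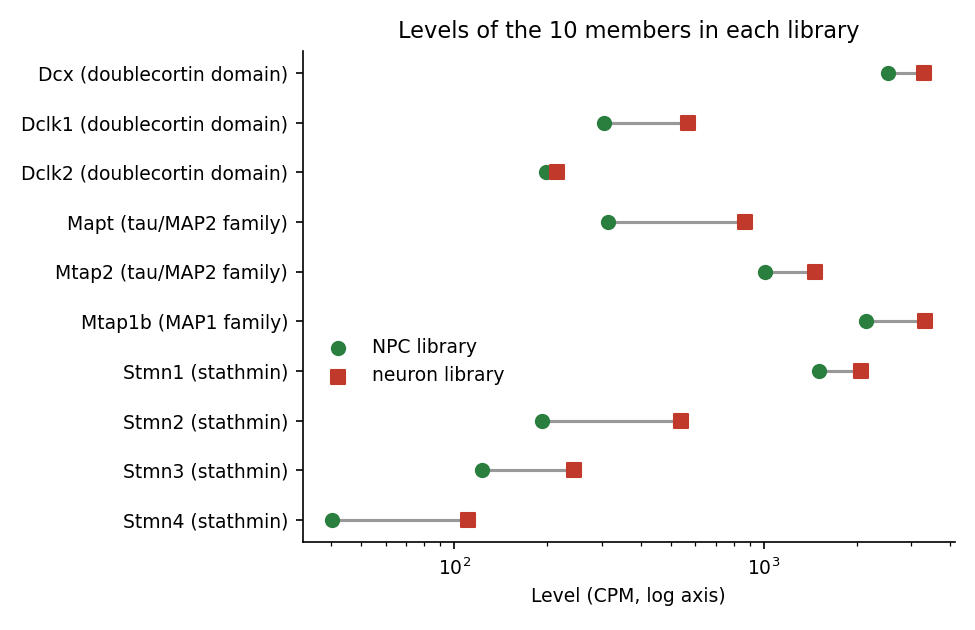
Level of each member in CPM (log axis) in the NPC library (green circles) and the neuron library (red squares), 1 library each, joined by a line. Every square lies to the right of its circle, and the gap runs from 197 to 215 CPM for Dclk2 to 192 to 542 CPM for Stmn2. Levels are not corrected for transcript length, so positions of different genes are not to be compared.

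Doublecortin-domain genes summed to 3025 CPM in NPCs and 4078 CPM in neurons, and their folds ran from 1.09 to 1.86. Dcx, whose product binds and stabilises microtubules in migrating cells, was at 2522 CPM in NPCs and 3294 CPM in neurons, on 68034 and 75054 reads. The NPC level was thus 76.6% of the neuron level, a 1.31-fold difference (interval 1.29 to 1.32). Dclk1, which joins doublecortin domains to a protein kinase domain, was at 306 and 569 CPM (8247 and 12969 reads). Its fold of 1.86 (1.81 to 1.91) was the largest of the doublecortin family. Dclk2, a close relative with the same domain order, was at 197 and 215 CPM (5326 and 4891 reads). Its 1.09-fold difference (1.05 to 1.13) was the smallest of the members. Scaled by total reads in place of the authors' scaling, the interval of Dclk2 ran from 0.998 to 1.08 and no longer excluded equality. The ratio of Dclk1 to Dclk2 reads was 1.71 times as high in the neuron library. Library scaling cancels in this ratio. Transcript length cancels only if each gene has the same mix of transcripts in both libraries, which was not tested. A further relative, Dclk3, had only 15 and 12 reads (0.556 and 0.527 CPM), so no difference was detectable at this depth. Several products of Dclk1 with and without the kinase or the doublecortin domains are known, and the gene-level values do not separate them.

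Start regions of these 3 genes are shown because Dcx gives the sorting reporter its driver and because Dclk1 and Dclk2 are relatives whose folds differ. They are RefSeq windows on GRCm38.p6, from 250 bases before to 50 bases after an annotated start, 5′ to 3′ on the gene's strand. Dcx and Dclk1 have a second window each, which is not printed. Capitals mark 3 motifs searched on both strands. The TATA box was read as TATAAA. The GC box, to which Sp1 factors bind, was read as GGGCGG. The E-box of the type bound by proneural factors was read as CAGATG.
Dcx, chrX:143933170-143933469, minus strand: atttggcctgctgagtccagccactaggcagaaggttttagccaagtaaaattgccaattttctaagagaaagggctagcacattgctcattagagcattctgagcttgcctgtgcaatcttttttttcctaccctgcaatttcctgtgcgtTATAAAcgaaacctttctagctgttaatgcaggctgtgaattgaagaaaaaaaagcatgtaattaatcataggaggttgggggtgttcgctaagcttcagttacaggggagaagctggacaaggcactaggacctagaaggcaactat
Dclk1, chr3:55242114-55242413, plus strand: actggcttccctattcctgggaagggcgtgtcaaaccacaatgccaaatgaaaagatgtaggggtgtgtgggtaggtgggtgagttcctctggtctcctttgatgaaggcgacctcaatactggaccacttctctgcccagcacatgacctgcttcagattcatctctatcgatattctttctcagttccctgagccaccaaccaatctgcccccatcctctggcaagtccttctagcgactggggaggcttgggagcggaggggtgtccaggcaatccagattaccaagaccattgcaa
Dclk2, chr3:86920835-86921134, minus strand: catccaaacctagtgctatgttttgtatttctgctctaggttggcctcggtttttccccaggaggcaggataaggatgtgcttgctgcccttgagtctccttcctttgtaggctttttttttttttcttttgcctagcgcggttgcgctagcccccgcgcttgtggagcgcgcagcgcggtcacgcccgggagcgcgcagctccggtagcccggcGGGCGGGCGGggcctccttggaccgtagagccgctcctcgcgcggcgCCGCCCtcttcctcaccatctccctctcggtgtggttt

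The Dcx window held 43.0% G and C, 3 CpG dinucleotides and 1 TATA box match that begins at −98 from the start. The Dclk1 window held 52.7% G and C and 5 CpG dinucleotides, with 0 matches to the 3 motifs. The Dclk2 window held 61.3% G and C, 27 CpG dinucleotides and 3 GC box matches, of which a pair overlap. Over all 32851 windows, the median was 52.7% G and C with 7 CpG dinucleotides. At any position and on either strand, 13.6% held a TATA box match, 35.7% a GC box match and 17.2% an E-box match. Windows were found for 6 of the 10 members. The other windows were those of Mtap2 (77.7% G and C, 5 GC box matches), Mtap1b (65.7%, 2 GC box, 1 TATA box and 1 E-box match) and Stmn3 (49.7%, 1 E-box match). Mapt, Stmn1, Stmn2 and Stmn4 had no entry. Matches are letters in a window, wherever they lie in it, and were not set against binding data.

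Tau and MAP2, which share a repeat domain that binds microtubules, differed in how far their transcripts were apart between the libraries. Mapt measured 313 CPM in NPCs and 870.4 CPM in neurons (8454 and 19831 reads), a fold of 2.78 (2.71 to 2.85). Only 102 of the 12693 tested genes had a higher log2 ratio than Mapt. Mtap2 was at 1007 and 1466 CPM (27161 and 33406 reads), a fold of 1.46 (1.43 to 1.48). The ratio of Mapt to Mtap2 reads was 1.91 times as high in the neuron library. Per kilobase of the longest protein-coding transcript in the GENCODE annotation, Mapt gave 27.0% of the summed level of the pair in NPCs and 41.4% in neurons. With the union of all annotated exons as the length these shares were 40.5% and 56.5%, so which gene of the pair is at the higher level in neurons depends on the length used. Mtap1b, a MAP of growing axons from a separate family, was at 2138 and 3322 CPM (57671 and 75693 reads). Its fold was 1.55 (1.54 to 1.57), and 1.48 with total reads scaling, which takes it below the 1.5-fold rule.

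Stathmin genes fell into an abundant member with a small fold and 3 others with larger ones. Stmn1, the cytosolic stathmin also made by dividing cells, was at 1508 CPM in NPCs and 2057 CPM in neurons (40665 and 46854 reads), a fold of 1.36 (1.35 to 1.38). Stmn2, Stmn3 and Stmn4 encode stathmins with an added N-terminal stretch that attaches them to membranes, and are known as neuronal genes. Stmn2 (SCG10), a protein of growth cones, was at 192 and 542 CPM (5166 and 12346 reads). Its fold of 2.83 (2.74 to 2.92) was the largest of the members, and 88 tested genes had a higher ratio. Stmn3 was at 123 and 244 CPM (3306 and 5557 reads), a fold of 1.99 (1.91 to 2.08) whose interval spans the 2-fold line. Stmn4 was at 40.4 and 111 CPM (1090 and 2531 reads), a fold of 2.75 (2.56 to 2.95). Per kilobase of the longest transcript, Stmn1 gave 86.1% of the summed stathmin level in NPCs and 77.7% in neurons. Over the same libraries Stmn2 went from 5.59% to 10.47%, Stmn3 from 6.53% to 8.60% and Stmn4 from 1.80% to 3.27%. With union exon lengths the share of Stmn1 was 82.8% and 74.3%, lower in neurons as well. Stmn1 has processed copies elsewhere in the genome, and the treatment of reads with several alignments is not given here, so its level is uncertain.

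**Figure D2:**
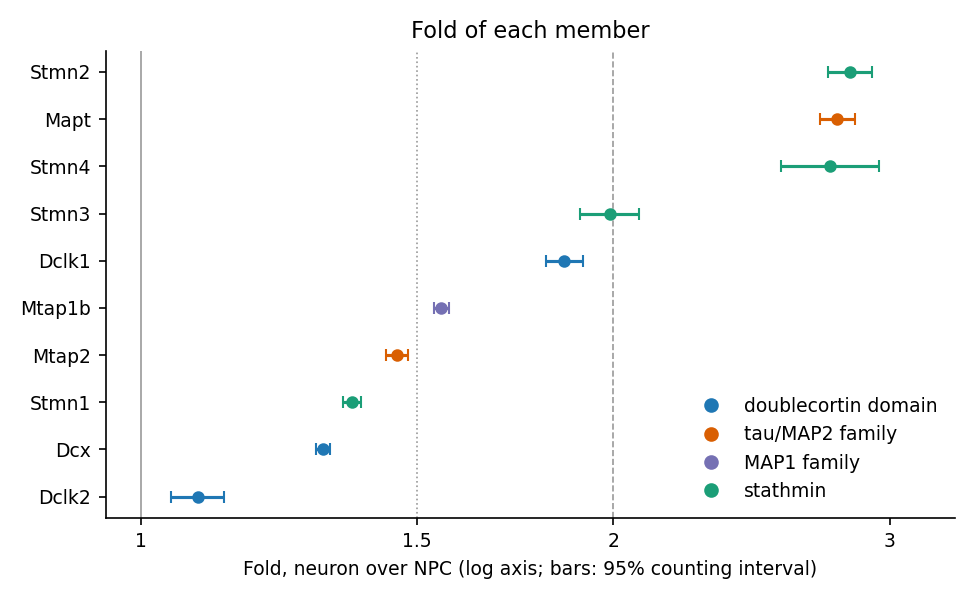
Fold of each member, neuron over NPC library (log axis), coloured by family, with bars for the 95% counting interval and lines at 1, 1.5 and 2. Stmn2, Mapt and Stmn4 sit together between 2.75 and 2.83, and Dclk2 lies nearest to 1 at 1.09.

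The order of the folds was Stmn2, Mapt, Stmn4, Stmn3, Dclk1, Mtap1b, Mtap2, Stmn1, Dcx and Dclk2. Each pair of members was compared by the ratio of their reads in neurons over that in NPCs, with a Woolf interval from the 4 read counts. Of 45 pairs, 42 had an interval that excluded 1. The exceptions were the pairs among Stmn2, Mapt and Stmn4, whose folds were not distinguishable within counting error. For Stmn2 against Mapt the ratio was 1.02 (0.978 to 1.06), and for Mapt against Stmn4 it was 1.01 (0.937 to 1.09). The step from Stmn4 to Stmn3 was the largest between neighbours in the order, at 1.38 (1.27 to 1.501), followed by Dcx to Dclk2 at 1.201 and Dclk1 to Mtap1b at 1.198. The steps from Mtap1b to Mtap2 and from Mtap2 to Stmn1 were 1.07 each, and that from Stmn1 to Dcx was 1.04 (1.03 to 1.06). The spread between replicate libraries is unknown here and could exceed these small steps.

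**Figure D3:**
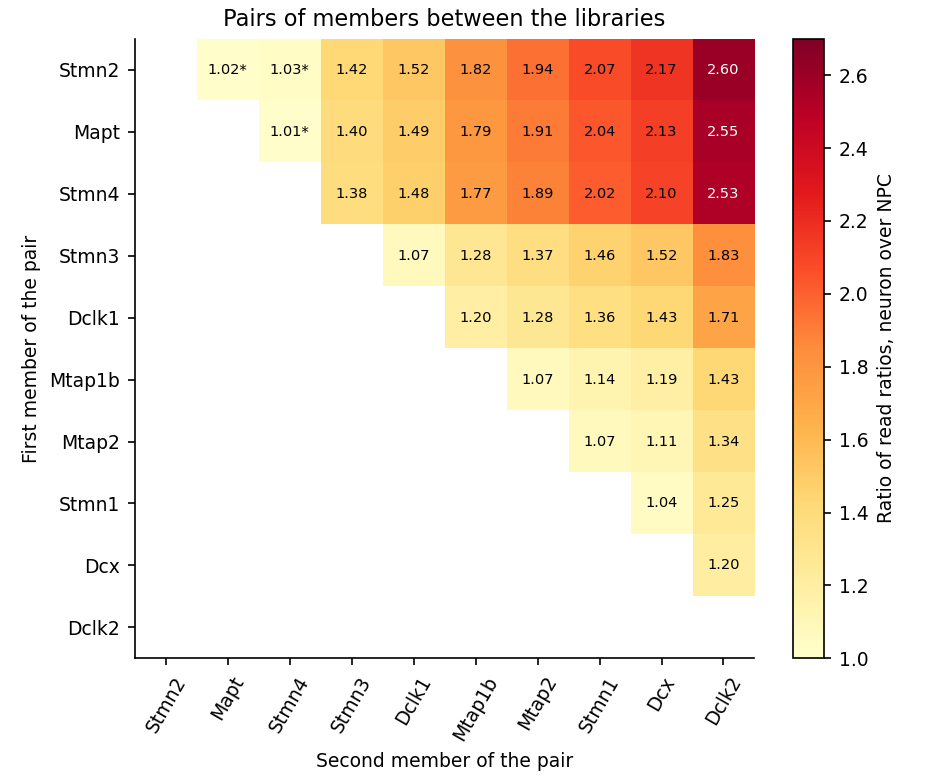
Ratio of read ratios for the 45 pairs of members, first member (rows) over second (columns), neuron over NPC, with members in order of fold and an asterisk where the counting interval includes 1. The 3 asterisks are among Stmn2, Mapt and Stmn4, and the column of Dclk2 holds the highest values, up to 2.60.

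Per kilobase of the longest protein-coding transcript, Stmn1 was the most abundant member in both libraries, at 1422 CPM per kilobase in NPCs and 1940.2 in neurons. Dcx came next, at 278 and 363 CPM per kilobase, and Dclk2 was last, at 24.6 and 26.7. These 3 positions were the same with union exon lengths. In between, Stmn2 went from position 6 in NPCs to 4 in neurons with the longest transcript, and from 7 to 6 with union exons. Mtap1b, at 181 and 281 CPM per kilobase, was at position 3 in both libraries by the longest transcript and at 3 and 4 by union exons.

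Set among all tested genes, the log2 ratios of the members ran from the 64.6th percentile (Dclk2) to the 99.3rd (Stmn2). Dcx lay at percentile 83.1, Stmn1 at 85.4, Mtap2 at 88.2 and Mtap1b at 90.4. Among the 3003 tested genes at 100 CPM or more the percentiles were close to these, 81.7 for Dcx and 99.4 for Stmn2, and 3.43% of those genes reached 2-fold on the neuron side (2.80% on the NPC side). In the same comparison Cajal-Retzius cell markers were higher in the neuron library in 6 of 7 cases (summed level 149 and 517 CPM), and microglia markers in 9 of 9 (30.8 and 132.0 CPM). Interneuron markers were higher in the NPC library in 8 of 9 cases (322 and 231 CPM). Pericyte markers (224 and 9.92 CPM) and endothelial markers (21.6 and 3.73 CPM) were higher in NPCs in 7 of 7 and 8 of 8 cases past the filter, and the oligodendrocyte lineage in 5 of 6 (74.8 and 38.8 CPM). Erythroid markers summed to 90.6 and 83.9 CPM. Of these markers, Des and Hbb-bh1 had 0 reads in the neuron library. A count of 0 allows up to 3 reads, or 0.132 CPM there. Cajal-Retzius cells and interneurons are neurons that also make these microtubule proteins, and the part of any of these cells in the members' folds was not tested. In sorted bulk RNA, more cells of a type and more RNA per cell cannot be told apart.

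**Figure D4:**
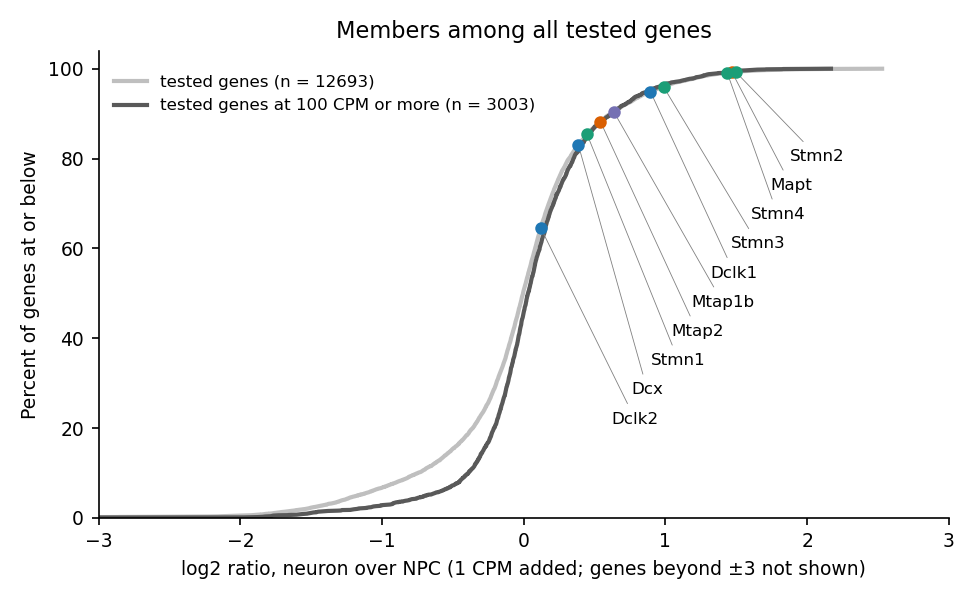
Cumulative percent of tested genes by log2 ratio of neuron over NPC (1 CPM added), for all 12693 tested genes (light) and the 3003 at 100 CPM or more (dark), with the members as points coloured by family. The members run from percentile 64.6 (Dclk2) to 99.3 (Stmn2).

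Other genes that act on microtubules were counted from lists chosen by function, 93 genes in 7 lists, of which 85 passed the filter. Like the members, the lists were chosen with earlier results of these data known. At least 2-fold higher in neurons were 4 and in NPCs 11, 9 of the latter from the spindle list. Over all tested genes these shares are 3.85% and 6.73%, so the 4 of 85 on the neuron side lie near the background. The median log2 ratio was 0.30 for 14 other structural MAPs, 0.26 for 16 plus-end and cross-linking proteins, 0.32 for 17 tubulin-modifying enzymes and 0.38 for 20 genes of kinases that act on the members or their kin, the Cdk5 activators Cdk5r1 and Cdk5r2 included. It was −0.30 for 7 severing enzymes and −1.48 for 10 spindle proteins, and the members' own was 0.77.

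Among the other structural MAPs, Camsap3, which caps minus ends, was found at 47.8 and 99.2 CPM, a fold of 2.08 toward neurons (1.94 to 2.23). Mtap6, a MAP known for cold-stable microtubules of neurons, was at 75.0 and 144 CPM (1.92-fold, 1.82 to 2.03). Mtap7, which recruits kinesin-1, was low and on the other side, at 2.08 and 0.615 CPM, a fold of 3.38 toward NPCs (1.86 to 6.57). Of 6 other doublecortin-domain genes listed, only Dcdc2b passed the filter (2.37 and 1.98 CPM), and its interval included 1. Plus-end tracking genes of the neuron navigator group, Nav3 (91.1 and 200.3 CPM) and Nav2 (145 and 309 CPM), had folds toward neurons of 2.198 (2.09 to 2.31) and 2.14 (2.05 to 2.22), and the end-binding gene Mapre2 was at 153 and 249 CPM (1.62-fold).

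The 5 of 7 severing enzyme genes on the NPC side included Fignl1 (31.03 and 12.1 CPM, 2.56-fold, 2.23 to 2.95), Fign (5.67 and 3.12 CPM, 1.82-fold) and the katanin gene Katna1 (33.1 and 26.2 CPM, 1.26-fold). Tubulin-modifying enzymes were higher in neurons in 15 of 17 cases, and 0 reached 2-fold. Over all tested genes, 49.3% were higher in neurons and 3.85% reached 2-fold on that side, so 0 of 17 lies near the background. Vash2, which removes the terminal tyrosine of alpha-tubulin, was at 86.0 and 153 CPM (1.77-fold), its partner Ccdc23 (now Svbp) at 26.8 and 52.1 CPM (1.94-fold), and the deglutamylase gene Agtpbp1 at 57.5 and 101.4 CPM (1.77-fold). Of the kinase and activator genes, 16 of 20 were higher in neurons. Camk2b, a subunit of a calmodulin-dependent kinase, was found at 28.6 and 121 CPM, a fold of 4.24 toward neurons (3.91 to 4.60), while its relative Camk2a was found at 14.4 and 5.88 CPM (a fold of 2.45 toward NPCs, 2.005 to 2.999). Cdk5r1, the activator of the tau and doublecortin kinase Cdk5, was measured at 348 and 652 CPM, a fold of 1.87 toward neurons.

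Spindle microtubule proteins went the other way from the members. All 10 were higher in NPCs, 9 of them at least 2-fold. Hmmr (42.7 and 12.5 CPM, 3.42-fold, 3.004 to 3.91), the depolymerising kinesin gene Kif2c (48.1 and 15.9 CPM, 3.02-fold) and Tpx2, which nucleates spindle microtubules (146 and 49.95 CPM, 2.92-fold), had the highest absolute log2 ratios of the list.

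**Figure D5:**
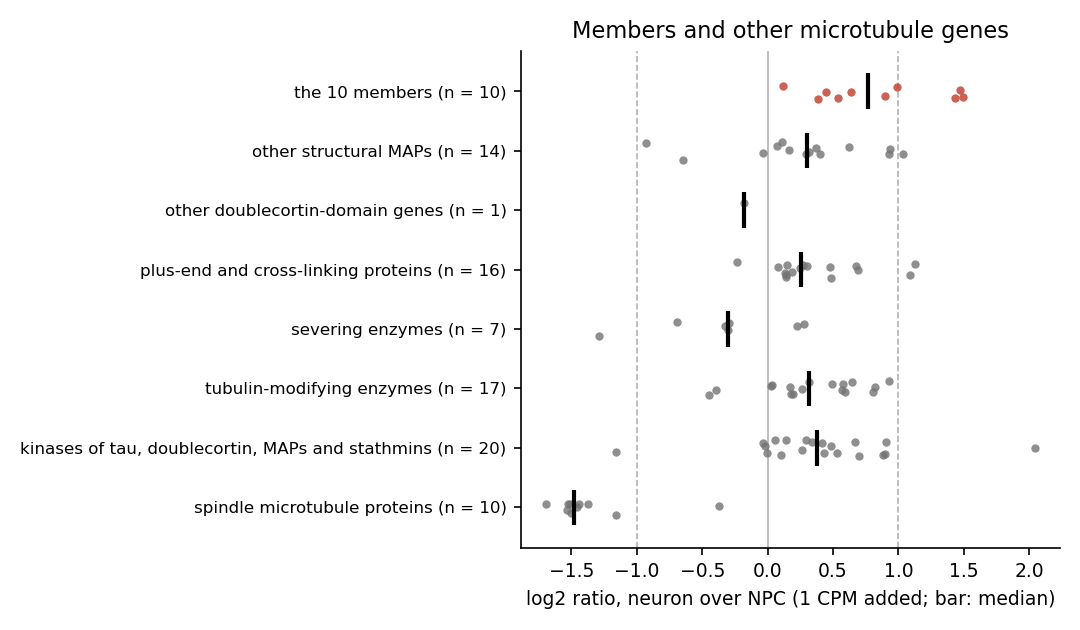
Log2 ratio of neuron over NPC (1 CPM added) for the members (red) and the genes past the filter in 7 other microtubule lists (grey), with black bars at the medians and dashed lines at 2-fold. All 10 members lie to the right of 0, the 10 spindle genes to its left, and the other lists hold genes on both sides, save the doublecortin-domain list with its single gene.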

How the data were processed

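RNA-seq of sorted NPCs and neurons, 1 library each, was analysed from the deposited gene tables. Per the submitters' processing notes, CASAVA 1.9, TopHat 1.2.0, SAMtools 0.1.18, edgeR and the mouse build mm9 were used, with no role or order given. Not given in the sources used here are the counting tool, strand setting, annotation and treatment of reads with several alignments. By GENCODE vM21, genes on the opposite strand overlap exons of Dclk1 (an antisense and a protein-coding gene) and Mtap2 (an antisense gene). Without the strand setting, it is not known whether reads of these overlaps were told apart. A miRNA gene on the same strand overlaps an exon of Stmn1, and strand cannot tell reads of that overlap apart.

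The deposited values are a signal that appears to be read counts rescaled between the libraries. The labels do not state how this was done, and the deposited sums still differ (2.51e+07 in NPC and 2.63e+07 in neuron). Each value above 0.01 is a whole multiple of one step (0.953 in NPC, 1.13 in neuron, plus a small constant) within 0.05 reads for 100% of values, and reads were recovered by division. Values were divided by the mean of both library sums and multiplied by 1000000 to give CPM. For genes reaching 1 CPM in either library, 1 CPM was added to both values and the log2 ratio of neuron to NPC taken, a scale that makes differences of low genes smaller. Without molecular identifiers, reads are no independent molecules and intervals cover counting error only. Levels per kilobase used GENCODE vM21 lengths (GRCm38), matched by symbol. Calculations used Python 3.11.15, scipy 1.17.1 and edgeR 4.0.16 (TMM factors only), and were tested on simulated data. The simulation held counting error only, and its changed genes had larger folds than the members. It thus says nothing about spread between libraries or about calls at the members' folds. Alternatives were other scalings (total reads, TMM, median of ratios), an added value of 0.5 or 5 CPM, no filter or 10 CPM, and, chosen after seeing the data, union exon lengths.

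The members and lists were chosen with earlier results of these data known. Genes named beside the members are the 3 with the highest absolute log2 ratio of each list among those past the filter. Also named are Dclk3 and the markers Nes, Sox2, Eomes, Tubb3 and Neurod6. Mtap6 was to be named whatever its value and is among these 3 of its list. Des and Hbb-bh1 were named after their values were seen, for their 0 reads, and Cdk5r2 only to describe its list. Of 93 list genes, 92 were found under one of the symbols written for them.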

Additional observations from a re-analysis of the deposited data

How the results depend on the processing

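All 10 members stayed higher in the neuron library under each of the 7 alternatives of scaling, added value and filter, and Mapt, Stmn2 and Stmn4 were the members at least 2-fold higher under each. Only another scaling could have changed a direction, since an equal value added to both libraries or a filter that all 10 pass cannot. TMM and median-of-ratios scaling shifted the median of all tested genes by only −0.0032 and 0.0013 on the log2 scale. They thus nearly repeat the authors' scaling, and total reads scaling is the alternative that differs from it. Of 70 member values under these alternatives, 61 moved by no more than 0.5 of the width of their counting interval on the log2 scale. The other 9, all with total reads scaling, moved by more. The filter alternatives cannot change the value of a member, since all 10 pass them, so their values among the 61 say nothing about stability. Total reads scaling shifts the median of all tested genes by −0.064 on the log2 scale. With it the members' median log2 ratio was 0.70, Mtap1b fell below 1.5-fold (log2 ratio 0.57), Dclk2 came to 0.053, and 0 other structural MAPs were 2-fold higher in neurons. With 5 CPM added, 238 of all tested genes reached 2-fold on the neuron side and 399 on the NPC side, 0 other structural MAPs were 2-fold higher in neurons and 0 kinases 2-fold higher in NPCs. With a 10 CPM filter, which tests fewer genes, 548 of all tested genes reached 2-fold on the NPC side. With 0.5 CPM added, 1 other structural MAP reached 2-fold on the NPC side. Adding 0.5 reads left each of the 45 pair ratios inside its interval, which could hardly be otherwise with at least 1090 reads per member. No count test on the recovered reads was fitted, because 1 library per group leaves no residual degrees of freedom. No paired analysis was possible because each group has 1 library. Depth limits Dclk3 and the other genes below 1 CPM, not the members, which had at least 1090 reads.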
